A study of Homo sapiens with 20 samples.

Results

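The retinoid metabolism and receptor genes are 9 of the 57500 genes counted in each library, and were taken as a named set. They are ALDH1A3, RDH10, DHRS9, DHRS3, CRABP2, RARA, RARB, RARG and RXRA. The set was chosen by a rule that used the data, because ALDH1A3 had more reads after wounding in GCN2KO cells, so values of that contrast are given as a description with no test. RNA came from 20 samples of NTERT cells, a line of human keratinocytes that express hTERT, in 4 groups of 5. WT cells had received a control sgRNA, and GCN2KO cells were an early passage pool, not a clone, in which CRISPR/Cas9 had edited EIF2AK4, the gene of the eIF2 kinase GCN2. Cells of each genotype were left unwounded or subjected to high-density wounding (HDW), in which pipet tips are drawn across the cell sheet in perpendicular directions, and were harvested 6 h later. According to the labels all groups were grown in low-calcium EpiLife medium with keratinocyte growth supplement, and the study's methods add serum and calcium chloride before wounding to differentiate the sheet.

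Retinoic acid is made from vitamin A in steps that cells control closely. Retinol enters through STRA6 or by diffusion, is stored as retinyl esters by LRAT, and is oxidized to retinal by dehydrogenases such as RDH10 and DHRS9, while DHRS3 reduces retinal back to retinol. ALDH1A enzymes turn retinal into retinoic acid, CYP26 enzymes break it down, and CRABP2 and FABP5 carry it in the cell. Retinoic acid binds the receptors RARA, RARB and RARG, which pair with RXRA on DNA at repeats of a short motif. In epidermis RARG and RXRA are the main receptor pair, and retinoic acid is known to hold back cornification.

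RARB and CYP26A1 carry well-known repeats of this kind, and they are shown because both genes were close to the detection limit here, beside the stretch ahead of ALDH1A3, the gene whose rise after wounding chose the set. RefSeq transcript starts of GRCh38.p14 were used. The 250 bases before each start were searched on both strands for the receptor motif, spelled AGGTCA or AGTTCA or GGGTCA or GGTTCA, alone or as direct repeats with 1, 2 or 5 bases between them. Capitals mark the receptor motif, and matches may overlap other motifs.
RARB: gggtagGGTTCAccgaaAGTTCActcgca
CYP26A1: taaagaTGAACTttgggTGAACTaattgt
ALDH1A3: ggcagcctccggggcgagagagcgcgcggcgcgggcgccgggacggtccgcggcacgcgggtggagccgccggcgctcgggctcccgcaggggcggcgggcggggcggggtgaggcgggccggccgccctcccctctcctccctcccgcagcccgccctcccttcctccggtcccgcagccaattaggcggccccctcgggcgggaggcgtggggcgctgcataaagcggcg
The RARB stretch is chr3:25428204-25428232 on the plus strand, and its repeat spans bases -53 to -37 from the start. The CYP26A1 stretch is chr10:93073797-93073825 on the plus strand, with the repeat at -90 to -74 and its receptor motifs on the minus strand. Both stretches fall in exons of other GENCODE transcripts. The 232 bases of ALDH1A3 are chr15:100879581-100879812 on the plus strand, inside the GENCODE span of the gene but in no annotated exon.

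A repeat with 5 bases between the motifs was found in 26 of 35116 windows (0.074%). These included 1 of the 19 windows of the 8 set genes that had one, that of RARB, and 1 of 52 windows of other retinoid pathway genes, that of CYP26A1. Repeats with 1 or 2 bases between motifs occurred in 0.0968% and 0.0313% of all windows and in 0 of the 19. A lone receptor motif lay in 9 of the 19 windows and in 33.8% of all windows. RARB and DHRS3 each gave more than 1 of these 9, so windows of the same gene were counted apart. The window of ALDH1A3 had no match to any of these letters, and its GC content was 82.4%, above that of 98.6% of windows. AP-1 sites, spelled TGANTCA, lay in 2 of the 19 windows, those of DHRS3 and DHRS9, and in 6.57% of all windows. The ATF4-C/EBP letters TGATGNAA lay in 0 of the 19 and in 3.14% of all windows. A match describes the letters only.

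The libraries held 14083504 to 34611570 counts on genes. Normalized read counts below are raw counts scaled by TMM factors over the 20 libraries. EIF2AK4, which checks the labels, had 3980 to 4555 normalized read counts in the 10 WT libraries and 806 to 962 in the 10 GCN2KO libraries. The keratinocyte markers KRT5 and KRT14 were abundant in every group, and the 10 keratinocyte markers together summed to 520762 to 692991 normalized read counts. Their calls between genotypes went both ways. In edgeR, 3 of the 10 were higher and 4 lower in unwounded GCN2KO cells, beside 33.4% and 33.1% of all genes. After HDW 4 were higher and 4 lower, beside 35.9% and 35.8%. Unwounded, KRT5 and IVL had log2 fold changes of 0.50 and 1.83, and KRT14 and KRT15 of -0.85 and -1.88. The study's methods say that GCN2 loss can delay differentiation, though not stop it, which was not tested here. The 7 melanocyte markers summed to 130 to 209 in WT and 351 to 644 in GCN2KO libraries. MITF alone had 70.0 to 143 in WT and 246 to 565 in GCN2KO libraries, while TYR and SOX10 were at 0 throughout, and the part of these sums in the results was not tested. Fibroblast markers summed to 669 to 1043 over all groups. Some libraries stood apart for the set, as seen after the values were known. GCN2KO unwounded 1 was the highest of its group in 6 of the 9 genes and GCN2KO HDW 5 in 7, while GCN2KO HDW 1 was the lowest of its group in 7. Values without GCN2KO unwounded 1 or GCN2KO HDW 5 are given where they move a result by over 1.5 times or turn its sign, and for some others. Both of these were high for most of the set. Values of the set without GCN2KO HDW 1 are not given separately, though the fits that left out each library included it.

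The set spanned a wide range of levels. In FPKM, here counts per exonic kilobase scaled to effective library size, CRABP2 had 156 ± 8.73 (SD, n = 5) in WT unwounded cells, DHRS3 108 ± 4.47 and ALDH1A3 88.6 ± 1.88. RARG and RXRA, at 29.6 ± 0.401 and 25.7 ± 0.963 on this per-length scale, were the leading receptors. RDH10 had 10.6 ± 0.419, RARA 2.45 ± 0.24 and DHRS9 2.13 ± 0.226, again per length in WT unwounded cells, and the ranges of RARA and DHRS9 overlapped. RARB was far below these at 0.0501 ± 0.0306. After HDW, ALDH1A3 in WT cells reached 190 ± 17.5 per length and stood above CRABP2, at 148 ± 20.4. In wounded GCN2KO cells ALDH1A3 had 92.5 ± 3.99 per length, against 46.3 ± 8.58 for CRABP2 and 41.7 ± 8.44 for DHRS3. The other dehydrogenases that make retinoic acid were scarce. ALDH1A1 and ALDH1A2 had group means of 0.0935 to 0.408 FPKM, and ALDH8A1 had at most 5 reads in any library.

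**Figure D1:**
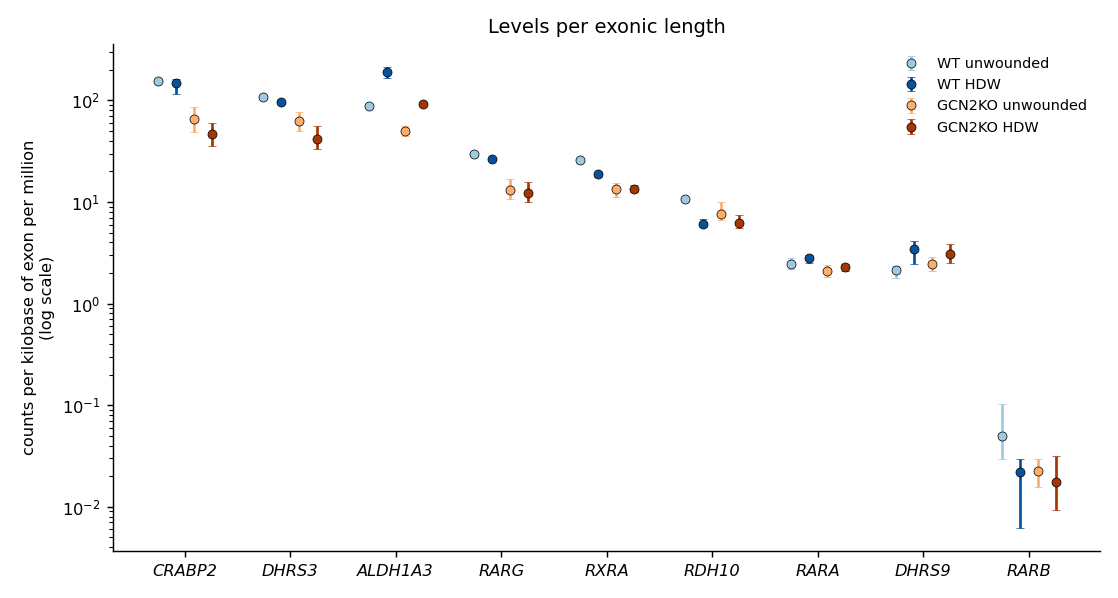
FPKM, computed from the counts (log scale), of the 9 genes in each group of 5 libraries, with points at the group mean and bars from the lowest to the highest library. ALDH1A3 is at 88.6 in WT unwounded cells and the highest of the 9 after HDW in both genotypes, and RARB lies below 0.11 in every library.

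ALDH1A3 makes retinoic acid from retinal, and it was higher after wounding and lower in GCN2KO cells. It lies at chr15:100877714-100916626 on the plus strand. WT unwounded libraries had 13591, 13228, 14029, 13506 and 13566 normalized read counts, and WT HDW libraries 30368, 25405, 28206, 32691 and 29333. GCN2KO unwounded libraries had 7561, 7880.4, 7235, 8627 and 6799.8, and GCN2KO HDW libraries 13867, 14897, 13765, 13607 and 14801. WT HDW libraries were all above the rest, GCN2KO unwounded libraries were all below the rest, and wounded GCN2KO cells overlapped unwounded WT cells. In WT cells HDW raised ALDH1A3 by a log2 fold change of 1.10 (SE 0.053, adjusted p = 4.73e-10 in edgeR), or 2.15-fold. In GCN2KO cells, the contrast used in choosing the set, the log2 fold change was 0.91 (SE 0.073), or 1.87-fold, and it was 0.89 (SE 0.082) without GCN2KO unwounded 1 and GCN2KO HDW 5. The difference between the 2 log2 fold changes, GCN2KO minus WT, was -0.21 (SE 0.091), which is a description. GCN2KO cells had less ALDH1A3 than WT cells, by a log2 fold change of -0.83 (SE 0.070, adjusted p = 3.12e-08 in edgeR) unwounded and -1.04 (SE 0.060, adjusted p = 3.99e-09 in edgeR) after HDW. Both of these tests share libraries with the contrast that chose the set. In such bulk RNA, fewer cells of a type and less RNA per cell cannot be told apart.

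Exons of ALDH1A3 share 33.3% of their bases with other genes, mostly with ALDH1A3-AS1 on the other strand, and whether the counting used strand is not stated in the sources used here. ALDH1A3-AS1, counted as its own gene, averaged 171 ± 24.5 (SD, n = 5) and 325 ± 30.7 normalized read counts in unwounded and wounded WT cells, and 100.4 ± 15 and 166 ± 9 in the corresponding GCN2KO groups. Its group means ran in nearly the same order as those of ALDH1A3, at a small share of its level. Reads of the pair cannot be told apart where their exons overlap.

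**Figure D2:**
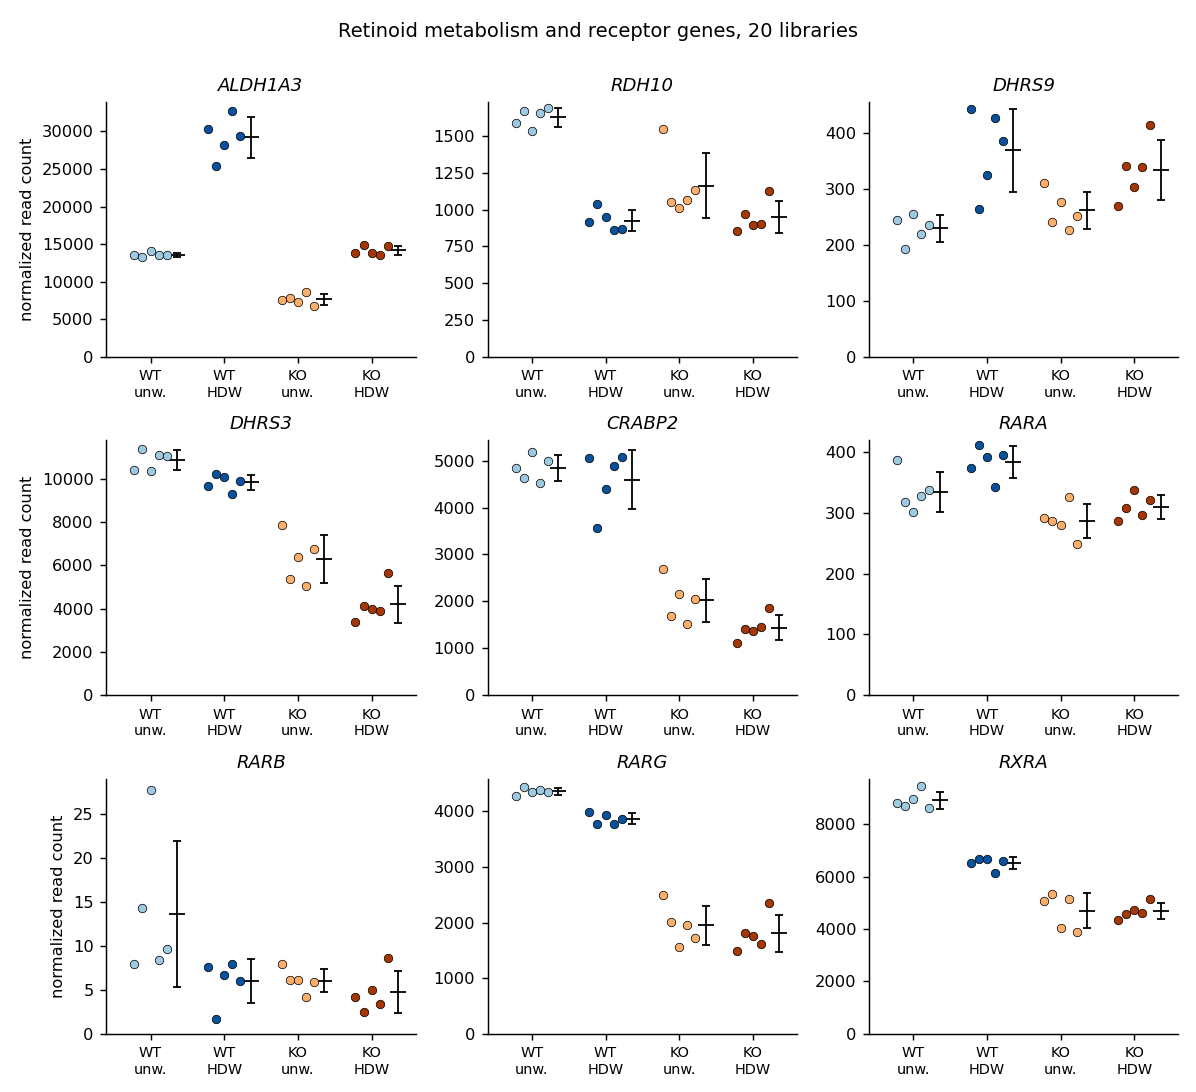
Normalized read counts (TMM) of the 9 genes, with a panel per gene, a point per library in replicate order 1 to 5, and beside each group its mean with an SD bar (n = 5, unw. = unwounded, KO = GCN2KO). ALDH1A3 is higher after HDW in both genotypes, while DHRS3, CRABP2, RARG and RXRA have all 10 GCN2KO libraries below all 10 WT libraries. The share of all genes whose genotypes separate in this way was not computed.

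The enzymes that interconvert retinol and retinal did not move together. RDH10, at chr8:73294602-73325281, carries out the first oxidation of retinol. It had 1586, 1672, 1536, 1654 and 1689 normalized read counts in WT unwounded and 919, 1035, 949, 861 and 865 in WT HDW libraries. GCN2KO unwounded libraries had 1549.6, 1048, 1011, 1067 and 1129.7, and GCN2KO HDW libraries 852, 967, 898, 901 and 1129. WT unwounded cells were thus highest, and only GCN2KO unwounded 1 reached into their range. HDW lowered RDH10 in WT cells by a log2 fold change of -0.82 (SE 0.050, adjusted p = 4.54e-09 in edgeR), and in GCN2KO cells the value was -0.28 (SE 0.11), or -0.15 (SE 0.086) without GCN2KO unwounded 1. Unwounded GCN2KO cells had less RDH10 than WT (log2 fold change -0.48, SE 0.10, adjusted p = 4.5e-04 in edgeR), and -0.61 (SE 0.062, adjusted p = 6.71e-07 in edgeR) without GCN2KO unwounded 1. After HDW the genotypes differed by 0.04 (SE 0.075, adjusted p = 0.669 in edgeR), a difference within the spread between libraries, and by -0.03 (SE 0.057, adjusted p = 0.614 in edgeR) without GCN2KO HDW 5.

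DHRS9, a retinol dehydrogenase of differentiated epithelium at chr2:169064789-169096167, was weakly expressed and was higher after wounding in WT cells. WT libraries had 244, 193, 255, 219 and 236 normalized read counts unwounded and 443, 263, 326, 428 and 387 after HDW. All WT HDW libraries were above all WT unwounded ones, by a log2 fold change of 0.68 (SE 0.13, adjusted p = 3.84e-04 in edgeR). GCN2KO libraries had 310.4, 241, 277, 227 and 252 unwounded and 270.2, 341, 303, 339 and 415 after HDW, overlapping, with a log2 fold change of 0.36 (SE 0.12). Between genotypes DHRS9 differed by 0.19 (SE 0.10, adjusted p = 0.121 in edgeR) unwounded and by -0.15 (SE 0.14, adjusted p = 0.354 in edgeR) after HDW. These were 0.12 (SE 0.098, adjusted p = 0.297 in edgeR) without GCN2KO unwounded 1 and -0.24 (SE 0.13, adjusted p = 0.112 in edgeR) without GCN2KO HDW 5.

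DHRS3, which returns retinal to retinol and is itself known to be induced by retinoic acid, lies at chr1:12567910-12618210 on the minus strand. It had 10425, 11395, 10367, 11114 and 11044 normalized read counts in WT unwounded and 9685, 10229.9, 10073, 9305 and 9920.2 in WT HDW libraries. GCN2KO unwounded libraries had 7852, 5383, 6407, 5070.0 and 6770.3, and GCN2KO HDW libraries 3391, 4138, 3972, 3902 and 5654. All GCN2KO libraries were below all WT libraries, and within each genotype the wounded cultures tended to be lower, with overlap in GCN2KO cells. GCN2KO against WT gave -0.78 on the log2 scale (SE 0.099, adjusted p = 3.49e-06 in edgeR) unwounded and -1.22 (SE 0.10, adjusted p = 1.14e-07 in edgeR) after HDW. HDW moved DHRS3 by -0.15 (SE 0.037, adjusted p = 0.00402 in edgeR) in WT cells, a call that was lost when all 20 libraries shared their spread (adjusted p = 0.309). In GCN2KO cells the log2 fold change was -0.57 (SE 0.14), and -0.61 (SE 0.098) without GCN2KO unwounded 1 and GCN2KO HDW 5.

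CRABP2, the carrier that delivers retinoic acid to its receptors in the nucleus, was the gene of the set with the largest difference between genotypes. It lies at chr1:156699606-156705816 on the minus strand. WT unwounded libraries had 4851, 4623, 5192, 4526 and 5001 normalized read counts and WT HDW libraries 5056, 3573, 4403, 4876 and 5079. GCN2KO libraries had 2700.1, 1686, 2152, 1515 and 2055 unwounded and 1109, 1412, 1375, 1444 and 1853 after HDW. Each GCN2KO library was below each WT library. The log2 fold change was -1.25 (SE 0.12, adjusted p = 1.38e-07 in edgeR) unwounded, which is 0.419 times the WT level, and -1.68 (SE 0.12, adjusted p = 2.88e-08 in edgeR) after HDW, which is 0.313 times. HDW itself gave -0.08 (SE 0.078, adjusted p = 0.432 in edgeR) in WT cells and -0.48 (SE 0.15) in GCN2KO cells.

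Among the receptors, RARG and RXRA were lower in GCN2KO cells. RARG, at chr12:53210567-53232980, had 4279, 4443, 4355, 4379.7 and 4356 normalized read counts in WT unwounded and 3993, 3783, 3939, 3777 and 3865 in WT HDW libraries. GCN2KO libraries had 2494, 2007, 1566, 1959 and 1719 unwounded and 1483, 1814, 1756, 1622 and 2344 after HDW. The genotypes did not overlap, while the wounded and unwounded GCN2KO cultures did. GCN2KO against WT gave a log2 fold change of -1.16 (SE 0.099, adjusted p = 3.73e-08 in edgeR) unwounded and -1.10 (SE 0.092, adjusted p = 1.13e-07 in edgeR) after HDW. HDW lowered RARG in WT cells by -0.17 (SE 0.029, adjusted p = 1.22e-04 in edgeR), a call also lost with all 20 libraries in the fit (adjusted p = 0.181), and gave -0.10 (SE 0.13) in GCN2KO cells. That value was 0.0047 (SE 0.122) without GCN2KO unwounded 1 and -0.21 (SE 0.117) without GCN2KO HDW 5.

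RXRA, the partner of the RARs and of several other nuclear receptors, lies at chr9:134317098-134440585. Its normalized read counts were 8814, 8717, 8979, 9472 and 8627 in WT unwounded and 6517, 6675, 6677, 6162 and 6588 in WT HDW libraries. GCN2KO libraries had 5079.5, 5334, 4057, 5157 and 3885 unwounded and 4349, 4583, 4739, 4614 and 5159.9 after HDW. WT unwounded was highest, WT HDW came next with no overlap on either side, and the GCN2KO groups lay together. HDW lowered RXRA in WT cells by a log2 fold change of -0.45 (SE 0.035, adjusted p = 5.63e-08 in edgeR), and in GCN2KO cells the value was 0.01 (SE 0.094), or 0.03 (SE 0.10) without GCN2KO unwounded 1 and -0.03 (SE 0.098) without GCN2KO HDW 5. The gap between genotypes was -0.92 (SE 0.089, adjusted p = 1.58e-07 in edgeR) unwounded and -0.48 (SE 0.046, adjusted p = 4.9e-07 in edgeR) after HDW.

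RARA, the broadly expressed RAR, at chr17:40309180-40357643, varied little. WT libraries had 388, 318, 301, 327 and 337 normalized read counts unwounded and 374, 411, 392, 342 and 394 after HDW. GCN2KO libraries had 292, 287, 279.8, 326 and 249 unwounded and 287, 307, 338, 296 and 321 after HDW. Neighbouring groups overlapped all along the order from GCN2KO unwounded to WT HDW. After HDW, RARA was lower in GCN2KO cells by a log2 fold change of -0.30 (SE 0.066, adjusted p = 9.06e-04 in edgeR), with no overlap of these 2 groups. Unwounded, the difference was -0.21 (SE 0.094, adjusted p = 0.0572 in edgeR). HDW gave 0.20 (SE 0.072, adjusted p = 0.0267 in edgeR) in WT cells, which passed in 10 of 17 alternative fits, and 0.12 (SE 0.088) in GCN2KO cells. RARA shares 21.4% of its exonic bases with genes on the other strand.

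RARB, a receptor gene that retinoic acid induces in many cell types, lies at chr3:24687887-25597932 and was barely detected. The WT unwounded libraries had 7.95, 14.3, 27.8, 8.36 and 9.64 normalized read counts and the WT HDW libraries 7.59, 1.68, 6.75, 7.98 and 6.05. The GCN2KO unwounded libraries had 7.96, 6.13, 6.14, 4.2 and 5.91 and the GCN2KO HDW libraries 4.17, 2.51, 5.03, 3.34 and 8.62. These values rest on 2 to 23 reads per library, and RARB did not pass the filter on low counts, so it was not tested in the comparisons between groups.

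Of the 8 genes of the set that passed the filter, 6 were lower and 0 higher in unwounded GCN2KO cells by edgeR's quasi-likelihood test, which called 33.1% of 15348 genes lower and 33.4% higher. CRABP2 and RARG were DE genes, that is, called genes with log2 changes of 1 or more in size, as were 16.4% of all genes tested. After HDW, 6 were lower and 0 higher, where 35.8% of 15855 genes were lower and 35.9% higher, and ALDH1A3, DHRS3, CRABP2 and RARG were DE genes against 14.9% of all. The median log2 fold change of the 8 genes was -0.81 unwounded and -0.76 after HDW, and that of all genes tested was 0.0042 and 0.0020. In WT cells, HDW was followed by higher reads of ALDH1A3, DHRS9 and RARA and lower reads of RDH10, DHRS3, RARG and RXRA, where the test called 26.1% of genes higher and 25.2% lower. ALDH1A3 was the only DE gene among them, and 4.17% of all genes were. The median of the 8 was -0.11, and that of all genes -0.0024. The set was picked with these data known, so the counts are a description.

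**Figure D3:**
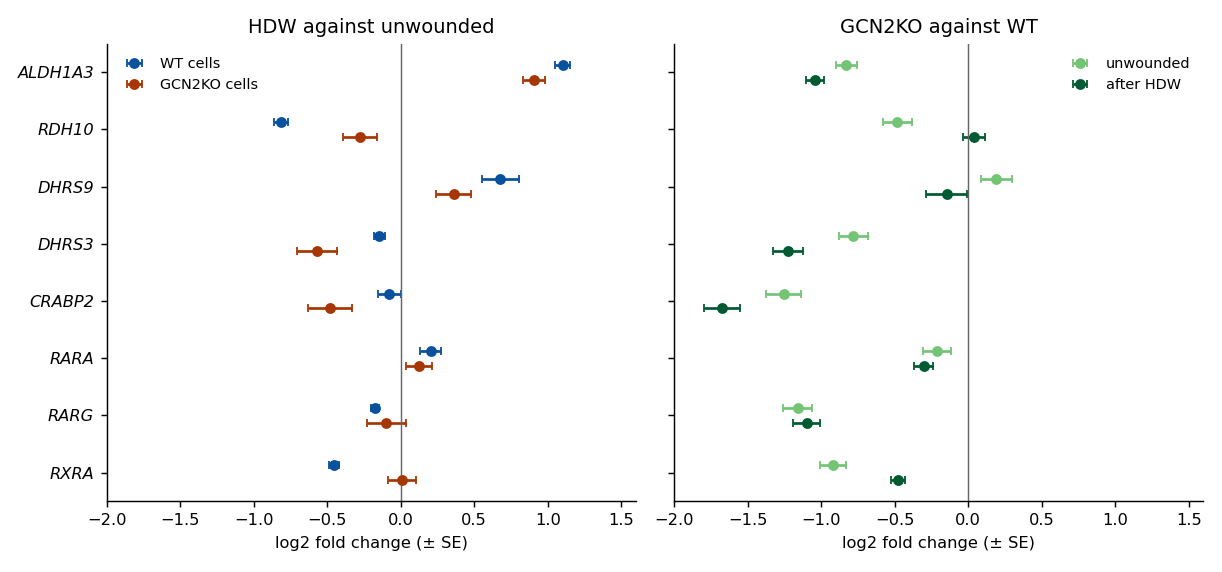
Log2 fold changes with SE bars of the 8 genes that passed the filter on low counts, on the left for HDW against unwounded cells of each genotype and on the right for GCN2KO against WT cells, unwounded and after HDW (10 libraries per comparison). ALDH1A3 has positive values of 1.10 and 0.91 on the left, and on the right CRABP2 lies at -1.25 unwounded and -1.68 after HDW.

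The log2 fold changes for HDW lay further apart between the genotypes for some genes than for others. Taken as GCN2KO minus WT log2 fold changes, and given with no test because they contain the contrast that chose the set, the differences were 0.53 (SE 0.13) for RDH10 and 0.45 (SE 0.10) for RXRA, both of which fell in WT cells. They were -0.44 (SE 0.15) for DHRS3, -0.42 (SE 0.18) for CRABP2 and -0.33 (SE 0.18) for DHRS9. RARA had -0.09 (SE 0.11) and RARG 0.06 (SE 0.14), and RARG had 0.17 without GCN2KO unwounded 1 and -0.05 without GCN2KO HDW 5. Without both libraries the values of the 8 genes lay between -0.48, for DHRS3, and 0.58, for RDH10.

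Some genes of the set also varied together among libraries. Over the 20 libraries, log2 normalized read counts of DHRS3 and CRABP2 had a Pearson's r of 0.968, and those of CRABP2 and RARG 0.952. These values include the genotype difference. After the mean of each group was taken away, r was 0.765 for DHRS3 and CRABP2, 0.803 for RDH10 and DHRS3 and 0.87 for DHRS9 and CRABP2. These were among the highest values. Over all pairs of the 8 genes r then ran from -0.259, for ALDH1A3 and DHRS3, to 0.87, and some pairs were near or below 0. DHRS9 and CRABP2 had an r of 0.0011 before the group means were removed. GCN2KO unwounded 1 and GCN2KO HDW 5 were each the highest of their group for RDH10, DHRS9, DHRS3 and CRABP2. The values of r without these libraries were not computed. The libraries share depth and scaling, and these correlations are a description.

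The other genes of the pathway changed in both directions. Of 40 listed genes, 29 could be tested between unwounded GCN2KO and WT cells, and 9 were higher and 13 lower by edgeR's quasi-likelihood test. After HDW, 10 were higher and 13 lower. In WT cells HDW was followed by 8 higher and 9 lower, where 26.1% of 15348 genes were higher and 25.2% lower. In GCN2KO cells 30 were tested, with 4 higher and 4 lower, where 11.9% of 15791 genes were higher, 10.8% lower and 0.671% DE genes in either direction. Median log2 fold changes of the list were -0.10 unwounded and -0.19 after HDW between genotypes, and after HDW -0.06 in WT and -0.05 in GCN2KO cells. Those of all genes tested were 0.0042, 0.0020, -0.0024 and -0.00097 in the same order. The counts between genotypes stand beside a background in which 33.1% to 35.9% of all genes were called in each direction.

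LRAT, which esterifies retinol for storage, had the largest log2 fold change of the 29 pathway genes tested after HDW in WT cells. It had 7.95, 10.7, 8.45, 12.1 and 12.5 normalized read counts in WT unwounded and 71.7, 64.8, 76.8, 77.8 and 83.9 in WT HDW libraries. GCN2KO libraries had 36.4, 50.6, 50.9, 40.4 and 45.6 unwounded and 30.0, 36.0, 41.9, 51.8 and 34.5 after HDW. WT cells thus went from the lowest to the highest group, and the GCN2KO groups lay between and overlapped. HDW raised LRAT in WT cells by a log2 fold change of 2.79 (SE 0.17, adjusted p = 3.51e-09 in edgeR), and GCN2KO cells had -0.22 (SE 0.17, adjusted p = 0.345 in edgeR). The difference between them was -3.03 (SE 0.24, adjusted p = 5.44e-09 in edgeR, interaction over 20 libraries), in a test that called 11.2% of 16536 genes higher and 12.5% lower. These values rest on 4 to 97 reads per library.

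**Figure D4:**
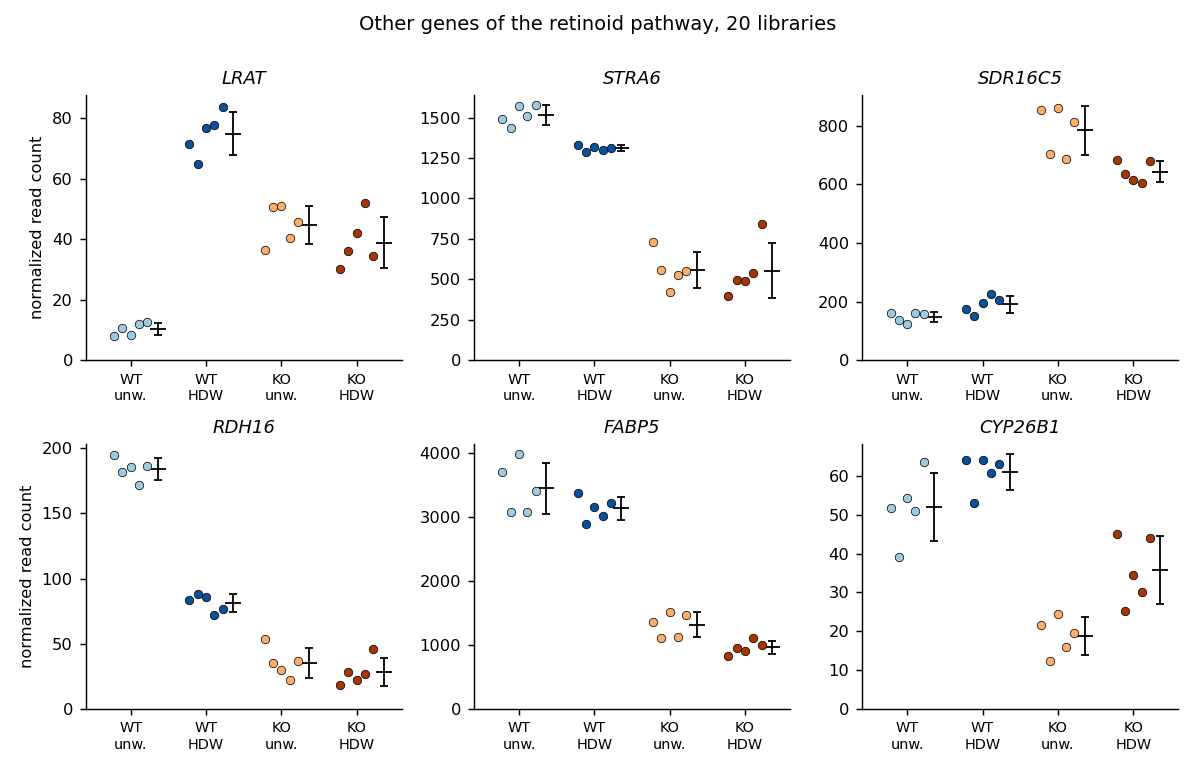
Normalized read counts (TMM) of 6 other genes of the pathway, with a point per library, in replicate order 1 to 5, and the group mean with its SD (n = 5, unw. = unwounded, KO = GCN2KO). LRAT rises after HDW in WT cells alone by the test of each genotype, SDR16C5 is higher in all GCN2KO libraries, and STRA6, RDH16 and FABP5 are lower in all of them.

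Genes of uptake, oxidation and transport differed between genotypes. STRA6, the retinol transporter, had a log2 fold change of -1.45 (SE 0.11, adjusted p = 8.33e-09 in edgeR) in unwounded GCN2KO against WT cells and -1.25 (SE 0.14, adjusted p = 2.66e-06 in edgeR) after HDW. FABP5, which can carry retinoic acid to PPARD, was lower by -1.38 (SE 0.10, adjusted p = 6.45e-09 in edgeR) and -1.71 (SE 0.066, adjusted p = 1.6e-10 in edgeR). PPARD was higher by 0.60 (SE 0.085, adjusted p = 1.06e-05 in edgeR) unwounded and by 0.40 (SE 0.064, adjusted p = 6.53e-05 in edgeR) after HDW. Among retinol dehydrogenases, SDR16C5 was higher in GCN2KO cells by 2.40 (SE 0.10, adjusted p = 1.78e-11 in edgeR) and 1.76 (SE 0.088, adjusted p = 1.19e-09 in edgeR). RDH16 was lower by -2.40 (SE 0.17, adjusted p = 3.39e-09 in edgeR) unwounded and by -1.53 (SE 0.19, adjusted p = 5.44e-06 in edgeR) after HDW. The coregulators TNIP1 and MED1 were higher and NRIP1 lower in GCN2KO cells in both states. Their log2 fold changes were 0.48, 0.41 and -0.65 unwounded and 0.54, 0.56 and -0.53 after HDW.

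After wounding, the aldo-keto reductases that reduce retinal fell. AKR1C3 had a log2 fold change of -1.21 (SE 0.074, adjusted p = 4.72e-09 in edgeR) in WT and -0.74 (SE 0.097, adjusted p = 4.23e-04 in edgeR) in GCN2KO cells, and AKR1B10 had -1.19 (SE 0.087, adjusted p = 3.23e-08 in edgeR) and -0.57 (SE 0.16, adjusted p = 0.0207 in edgeR). RDH16 fell in WT cells by -1.17 (SE 0.086, adjusted p = 3.15e-08 in edgeR). RDH11 rose in WT cells by 0.36. PPARD, RDH13 and MED1 rose in both genotypes, by 0.54, 0.25 and 0.23 in WT and 0.36, 0.54 and 0.40 in GCN2KO cells. The call of RDH13 in WT cells passed in 15 of 17 alternative fits, with overlap of the groups. That of PPARD in GCN2KO cells passed in 17 of 18, also with overlap.

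The breakdown enzymes were near or at the detection limit. CYP26A1 had at most 1 read and CYP26C1 at most 2 reads in any library, so neither was tested. CYP26B1 ranged over 39.3 to 63.6 normalized read counts in unwounded and 53.0 to 64.1 in wounded WT libraries, and over 12.3 to 24.6 and 25.1 to 45.0 in the GCN2KO libraries. It was lower in GCN2KO cells by -1.45 (SE 0.20, adjusted p = 6.56e-06 in edgeR) unwounded and -0.76 (SE 0.16, adjusted p = 6.08e-04 in edgeR) after HDW. HDW raised it in GCN2KO cells by 0.92 (SE 0.22, adjusted p = 0.0106 in edgeR), and in WT cells the value was 0.20 (SE 0.13, adjusted p = 0.216 in edgeR). ALDH1A1 was higher in GCN2KO cells by 0.76 (SE 0.24, adjusted p = 0.00943 in edgeR) unwounded and 0.87 (SE 0.27, adjusted p = 0.00948 in edgeR) after HDW, at 9 to 54 reads per library. ALDH1A2 differed by -0.34 (SE 0.23, adjusted p = 0.2 in edgeR) and -0.42 (SE 0.23, adjusted p = 0.114 in edgeR).

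Of 16 genes known to rise with retinoic acid in epithelial cells, 13 were tested in unwounded cells, and 3 were higher and 6 lower in GCN2KO cells, beside 33.4% and 33.1% of all genes. After HDW, 14 were tested, with 3 higher and 6 lower, beside 35.9% and 35.8% of all genes. Medians were -0.26 and -0.25 on the log2 scale. IGFBP6, an inhibitor of IGF signalling, was lower by -3.00 (SE 0.16, adjusted p = 2.03e-10 in edgeR) and -3.77 (SE 0.10, adjusted p = 7.17e-12 in edgeR), and PLAAT4, a phospholipase induced by retinoids, by -2.06 (SE 0.12, adjusted p = 6.12e-10 in edgeR) and -1.90 (SE 0.13, adjusted p = 1.48e-08 in edgeR). MUC1 was lower by -2.10 unwounded and by -1.77 after HDW. In the other direction, HBEGF, BHLHE40 and KRT13 were higher in unwounded GCN2KO cells, by 0.74, 0.44 and 0.48, and BHLHE40, PDK4 and KRT19 were higher after HDW, by 0.67, 1.75 and 0.67. PDK4 rests on few reads, with group means of 2.07 to 20.1 normalized read counts. KRT19 rests on 8 to 19 reads per library after HDW, and its call there passed in 14 of 16 alternative fits.

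HDW in WT cells was followed by 6 higher and 3 lower of 13 tested genes of this list, beside 26.1% and 25.2% of all genes, with a median of 0.24. TGM2, the tissue transglutaminase, had 165, 205, 163, 168 and 165 normalized read counts in WT unwounded and 786, 679, 772, 809.6 and 848 in WT HDW libraries. In GCN2KO cells it had 178, 124, 129, 156 and 132 unwounded and 218, 207, 215, 214 and 262 after HDW. WT HDW libraries were all far above the rest. The log2 fold change for HDW was 2.18 (SE 0.075, adjusted p = 2.14e-11 in edgeR) in WT and 0.64 (SE 0.11, adjusted p = 0.00252 in edgeR) in GCN2KO cells, and the difference was -1.54 (SE 0.14, adjusted p = 3.23e-08 in edgeR). HBEGF, a ligand of the EGF receptor, rose by 1.41 (SE 0.10, adjusted p = 2.71e-08 in edgeR) in WT and 0.51 (SE 0.073, adjusted p = 6.45e-04 in edgeR) in GCN2KO cells, and AQP3 by 0.78 in WT cells. PLAAT4, RARRES1 and HOXA5 fell in WT cells, by -0.82, -0.48 and -0.28. In GCN2KO cells 3 of 14 rose, PDK4, HBEGF and TGM2, and 1 fell, PLAAT4, beside 11.9% and 10.8% of all genes, with a median of 0.05.

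**Figure D5:**
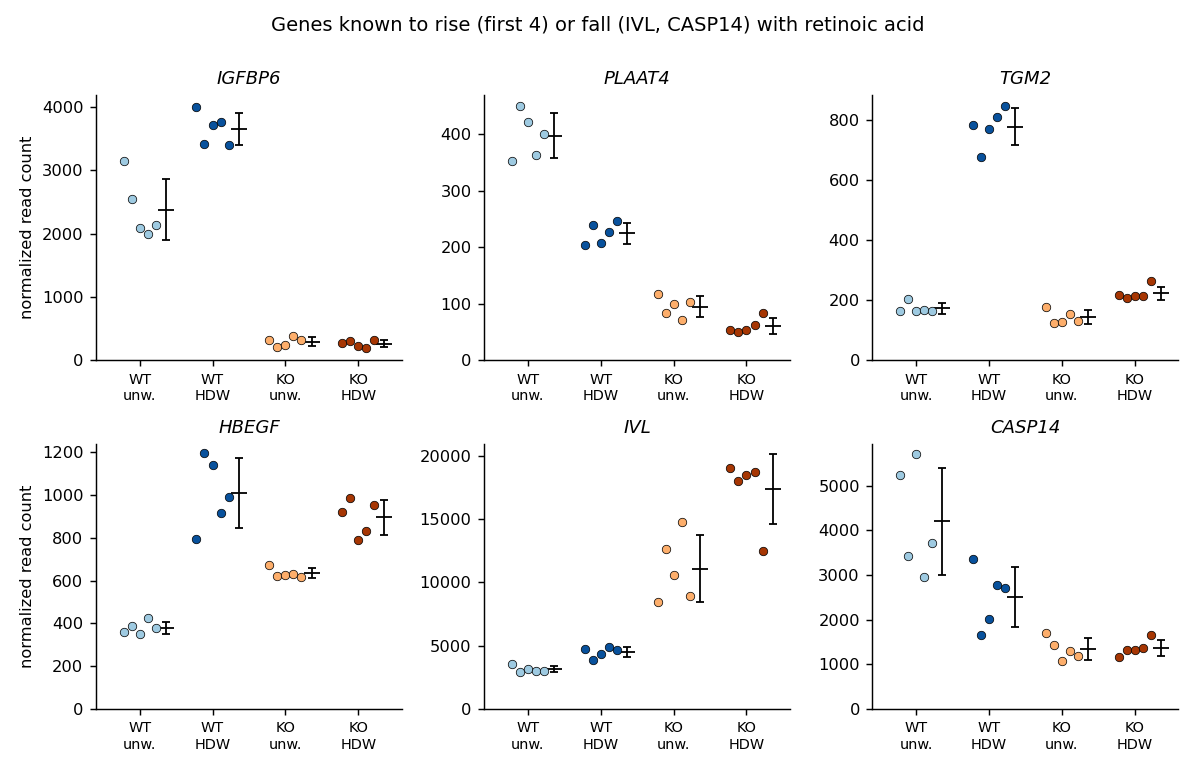
Normalized read counts (TMM) of 4 genes known to rise with retinoic acid (IGFBP6, PLAAT4, TGM2, HBEGF) and 2 known to fall with it in keratinocytes (IVL, CASP14), with a point per library, in replicate order 1 to 5, and the group mean with its SD (n = 5, unw. = unwounded, KO = GCN2KO). IGFBP6 and PLAAT4 are low in all GCN2KO libraries, TGM2 is high in WT HDW libraries, and IVL is high in GCN2KO libraries.

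Of 11 differentiation genes that retinoic acid is known to lower in keratinocytes, 7 were tested. In GCN2KO against WT cells 1 was higher and 4 lower unwounded, and 2 were higher and 4 lower after HDW, with medians of -0.77 and -0.32. The shares of all genes were 33.4% and 33.1% unwounded and 35.9% and 35.8% after HDW. IVL, the cornified envelope protein involucrin, was higher by 1.83 (SE 0.13, adjusted p = 4.94e-09 in edgeR) and 1.96 (SE 0.10, adjusted p = 1.92e-09 in edgeR). KRT10 was higher by 0.28 after HDW (adjusted p = 0.0321 in edgeR), with overlap of the groups, and passed in 9 of 17 alternative fits. CASP14, a protease of cornification, was lower by -1.66 (SE 0.17, adjusted p = 2.86e-07 in edgeR) and -0.88 (SE 0.16, adjusted p = 1.62e-04 in edgeR), and SPINK5 by -0.77 and -0.75. FLG was lower in unwounded cells by -0.93, KRT1 by -1.06 unwounded and -0.83 after HDW, and TGM1 after HDW by -0.32. The calls after HDW passed in 14 of 16 alternative fits for KRT1 and 12 of 17 for TGM1. KRT1 rests on 6 to 39 reads per library. In WT cells HDW raised IVL by 0.51 and lowered FLG by -1.01, CASP14 by -0.75 and TGM1 by -0.34, with a list median of -0.25. In GCN2KO cells it raised IVL by 0.66 and lowered TGM1 by -0.40, a call that passed in 12 of 18 alternative fits, with a list median of -0.08.

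Genes whose levels most resembled ALDH1A3 over the 20 libraries, out of 16535 compared by Pearson's r of log2 CPM, were SPRED1 (r = 0.989), AKAP12 (0.983), LMNB2 (0.983) and SEPTIN11 (0.981). SPRED1 is known as an inhibitor of Ras signalling, AKAP12 as a kinase scaffold and LMNB2 as a lamin of the nuclear envelope. SPRED1 averaged 490 and 840 normalized read counts in unwounded and wounded WT cells, and 354 and 515 in the GCN2KO groups. AKAP12 ran from 36.1 in GCN2KO unwounded to 1397 in WT HDW cells. With group means taken away, r of these 4 genes lay between 0.573, for SEPTIN11, and 0.827, for AKAP12.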

How the data were processed

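RNA of 20 NTERT samples was sequenced as read pairs. The authors ran Trimmomatic, then STAR against GRCh38, then featureCounts over exons with unique alignments only, and deposited raw counts for each gene. Strandedness and the annotation release are not given in the sources used here. Symbols, positions and exonic lengths came from GENCODE 44, which held 56410 of 57500 gene IDs.

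The main test of each pair of groups was the quasi-likelihood F-test of edgeR 4.0.16 under R 4.3.3, with TMM and filterByExpr (minimum count 10, minimum total 15) on the 10 libraries of the pair, and the interaction on all 20. A gene was called at 0.05 or below after Benjamini-Hochberg adjustment over all genes tested. SEs are the size of the log2 fold change over the root of F. FPKM values divide counts by exonic kilobases and effective library size. For correlations within the set, 0.5 was added to normalized read counts before log2. Alternatives replaced the test (DESeq2 1.42.0), the scaling (DESeq2 size factors or plain library size) or the filter (none, or a mean count of 50), fitted all 20 libraries, added a replicate block, or left out each library. Scripts were tested on simulated data.

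The gene set, lists and tests were chosen with earlier results of these data known. Named genes are the 9 of the set, EIF2AK4, up to 3 higher and 3 lower genes per list and comparison with the smallest adjusted p, the retinal dehydrogenases and CYP26 genes, and the 5 genes most like ALDH1A3, of which 1 is not reported here. The study's methods call its replicates biological, with 5 per group here, while the labels do not say whether cultures were started apart, so p-values measure the spread between these samples. Whether separately edited pools were sequenced is not stated either. A difference between the edited pool and the control cells that is not due to GCN2 cannot be told apart from genotype. Marker lists were read as sums, and the keratinocyte markers also by their calls between genotypes. Overlap of groups was looked at for listed genes only, so the share of all genes without overlap is not known. Of the 7 immune and endothelial markers, sums ran from 45.3 to 123 normalized read counts.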

Additional observations from a re-analysis of the deposited data

Results flagged for a closer look

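Values were set apart within their group of 5 by Dixon's criterion in 13 of 177 groups of named genes, where chance at 1 in 20 would give about 8.85. In the set this was RDH10 alone, at 1549.6 normalized read counts in GCN2KO unwounded 1 against 1011 to 1130 in the rest of its group. The same library was high for HBEGF (674), KRT13 (50119.0) and AQP3 (2589). GCN2KO HDW 5 was low for PPARD (1419), TNIP1 (12180) and IVL (12469) and high for MUC1 (455), TGM2 (262) and TGM1 (2842). The others were MED1 in WT unwounded 4 (1707), TGM2 in WT unwounded 2 (205) and FLG in GCN2KO unwounded 2 (106).

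The response to HDW differed between genotypes, by edgeR's interaction test over 20 libraries, for 16 of 37 named genes tested outside the set, beside 11.2% higher and 12.5% lower of 16536 genes. Named genes were largely picked for small adjusted p-values, some of them in this same test. Their count is therefore a description and cannot be measured against those shares. As GCN2KO minus WT log2 fold changes, the values were -3.03 for LRAT, -1.54 for TGM2, -0.91 for HBEGF, -1.04 for AQP3, -0.58 for RDH11, -0.64 for SDR16C5 and -0.78 for IGFBP6. They were 2.98 for PDK4, 0.93 for FLG, 0.45 for AKR1C3, 0.44 for NCOA2, 0.40 for NCOA3, 0.87 for RDH16, 0.61 for AKR1B10, 0.78 for CASP14 and 0.70 for CYP26B1. Adjusted p-values ran from 5.44e-09 for LRAT to 0.0439 for CYP26B1.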

How the results depend on the processing

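Of the tested genes of the set, calls held in 17 of 17 alternative fits except for DHRS3 and RARG in WT cells after HDW, which were lost with all 20 samples in the fit, leaving 2 lower genes in place of 4, and for RARA. RARA passed in 10 of 17 for HDW in WT cells and in 4 of 17 for GCN2KO against WT unwounded, where the main fit did not call it. No called direction turned. ALDH1A3 kept a log2 fold change of 0.87 to 0.96 for HDW in GCN2KO cells, and its difference between genotypes ran from -0.25 to -0.15 with libraries left out and was -0.14 under library size alone. Counts of listed genes moved more. Among genes known to fall with retinoic acid, those higher in GCN2KO cells were 2 in place of 1 unwounded without a filter (1 to 2 with libraries left out, the higher without WT unwounded 1) and 1 in place of 2 after HDW with all 20 samples (1 to 2 with libraries left out, the lower without WT HDW 2, 3 or 5 or GCN2KO HDW 1, 2, 3 or 4). Among genes known to rise, 1 in place of 3 was higher after HDW at a mean of at least 50 counts. For HDW in GCN2KO cells with libraries left out, lower pathway genes numbered 2 to 5, without GCN2KO HDW 3 the fewest, and genes known to rise numbered 3 to 4 higher and 0 to 2 lower (0 without GCN2KO HDW 2 or 3, 2 without GCN2KO HDW 5). Without GCN2KO unwounded 1 and GCN2KO HDW 5, chosen after seeing the data, they were 5 higher and 2 lower. Those known to fall numbered 0 to 1 lower there (0 without GCN2KO unwounded 1 or GCN2KO HDW 1, 2, 3 or 4), and 0 with the replicate block. Same-numbered libraries did not deviate together (mean r between -0.109 and 0.0332), so the numbers were not taken as pairs, and the replicate block left the calls in the set at 6 lower in each comparison of genotypes and at 3 higher and 4 lower for HDW in WT cells. Depth limits RARB, LRAT, PDK4, KRT19, KRT1, ALDH1A1, ALDH1A2 and the CYP26 genes. The cause of these shifts was not tested.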

Other observations

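The ratio of ALDH1A3, which makes retinoic acid, to DHRS3, which drains its precursor, was computed per exonic length after the values of both genes were seen, and is given without a test. It was 0.825 ± 0.05 (SD, n = 5) in WT unwounded and 0.825 ± 0.21 in GCN2KO unwounded cells, so that the group means were alike while both genes were lower in GCN2KO cells. It was 1.96 ± 0.253 in WT HDW and 2.27 ± 0.349 in GCN2KO HDW cells. Libraries ranged from 0.634 to 1.12 in the unwounded groups and from 1.64 to 2.69 in the wounded groups. Unwounded and wounded samples of either genotype did not overlap. Because the rise of ALDH1A3 in wounded GCN2KO cells chose the set, their higher ratio follows in part from that choice.

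The 9 genes together took 1569.8 to 1595.0 CPM in WT unwounded and 1785 to 1999 in WT HDW libraries. In GCN2KO libraries they took 766 to 961 unwounded and 894.5 to 1120 after HDW.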
